A study of Rattus norvegicus with 12 samples.

Results

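The Krüppel-like factors described here are 10 transcription factor genes, Klf2, Klf3, Klf4, Klf5, Klf6, Klf7, Klf9, Klf10, Klf13 and Klf15, chosen by gene name among the 28111 names in the files. All 10 names were present. The mRNA came from primary cortical neuroglial cultures of newborn Wistar rats at 10 days in vitro, 4 h after the addition of material secreted by glial progenitor cells that had been derived from human induced pluripotent stem cells. There were 12 libraries, with 3 in each of 4 conditions. Intact control cultures (IC) received nothing. The other cultures received extracellular vesicles (EV) at 10 µg/mL, proteins of the 3–100 kDa fraction at 15 µg/mL or the total secretome at 45 µg/mL, so that the doses of the preparations differed. All cultures were kept in Neurobasal medium with B-27, and cytosine arabinoside had been added on an early day to limit glial division, and the RNA is that of neurons and glia together. The labels do not say whether the libraries of a condition came from separate cultures or litters, and the p-values measure only the spread between these libraries.

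Krüppel-like factors share a C-terminal set of C2H2 zinc fingers that binds GC-rich and CACCC sequences, and they differ in the remainder of the protein, which recruits activators or repressors. Klf3 recruits the CtBP co-repressors, and Klf9, Klf10, Klf11 and Klf13 recruit Sin3a. In neurons the family is known for its part in axon growth, where Klf6 and Klf7 favour and Klf4 and Klf9 restrain the extension of neurites. Several members are early response genes, and Klf9 and Klf15 are known targets of the glucocorticoid receptor.

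Values are TPM, a measure of transcript abundance relative to the library total, corrected for transcript length, so that levels can be compared between genes. The depth of the libraries is not recoverable from TPM, and no counting interval was computed. Differences were tested with limma on log2(TPM + 1) in a fit of the 6 libraries compared, over all genes that reached 1 TPM in 3 or more of them. This scale understates the changes of low genes. A gene is said to pass the fold rule when it changed by over 1.5-fold at an unadjusted p under 0.05, and to pass the false discovery rate (FDR) at a Benjamini-Hochberg adjusted p under 0.05. Across the libraries, 14890 to 15392 rows were above 0 and the correlation of log2 values lay between 0.938 and 0.975 within conditions and between 0.928 and 0.975 across conditions. Neuronal markers summed to between 1652 and 2228 TPM per library and astrocyte markers to between 728 and 1403 TPM. The 6 microglial markers summed to at most 2.10 TPM and the 5 endothelial markers analysed to at most 0.758 TPM in any library. Markers of the oligodendrocyte lineage summed to 121 to 253 TPM and those of fibroblasts and mural cells to 1.69 to 4.28 TPM.

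In IC the members spanned more than an order of magnitude. Klf6 was the highest at 53.1 ± 7.07 TPM (SD, n = 3), above 79.9% of the genes with measurable levels, followed by Klf7 at 45.0 ± 11.9 TPM, a difference smaller than the spread of Klf7. Klf3 stood at 14.5 ± 2.41 TPM and Klf10 at 11.3 ± 2.83 TPM, and these neighbours in the order overlapped. The next were Klf9 at 9.21 ± 1.21 TPM and Klf13 at 7.95 ± 2.59 TPM, which overlapped as well. Klf15 at 4.55 ± 0.831 TPM and Klf5 at 4.47 ± 0.962 TPM could not be ordered. Klf2 at 1.28 ± 0.614 TPM and Klf4 at 0.936 ± 0.285 TPM, the members best known from endothelium, were the lowest. All 10 passed the filter on low values in each comparison, except that Klf4 did not pass it in EV against IC, where it reached 1 TPM in too few libraries.

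**Figure D1:**
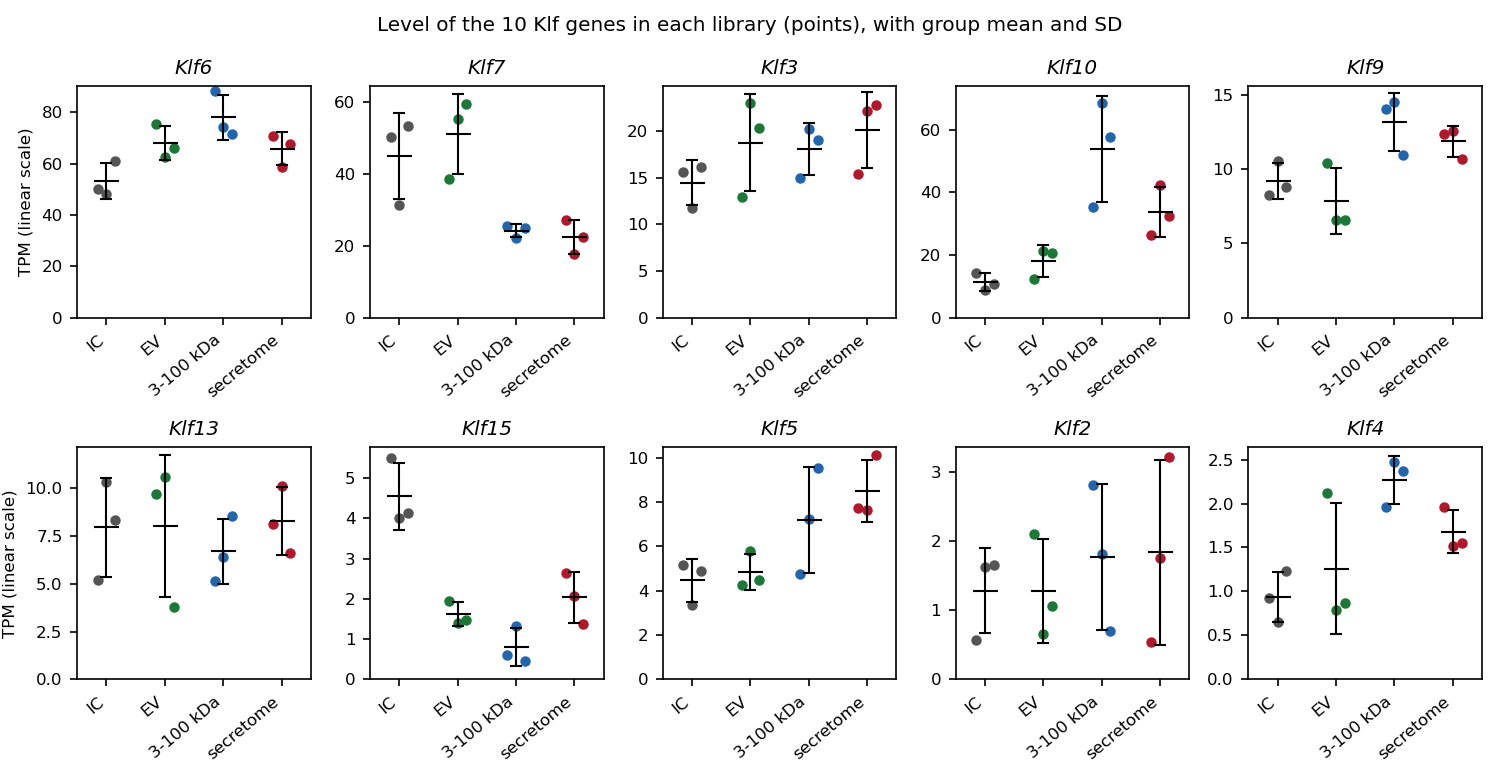
Level in TPM (vertical axis, linear, from 0) of each of the 10 Klf genes in the 12 libraries, with points for libraries, a horizontal dash for the mean and bars for the SD of the 3 libraries of a condition. Klf10 rises from 8.83–14.4 TPM in IC to 35.3–68.6 TPM with the 3–100 kDa proteins, Klf15 falls from at least 4.01 TPM to at most 2.65 TPM in every treated library, and Klf7 lies at 17.8–27.2 TPM with the proteins and the secretome against at least 31.4 TPM in IC and EV.

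Across the 4 conditions, 3 members differed in limma's F test over all 12 libraries, where 4.39% of the 13270 genes tested passed the FDR. These were Klf10 (adjusted p = 0.00486), Klf15 (adjusted p = 0.00745) and Klf7 (adjusted p = 0.0265). Klf10 and Klf15 kept an adjusted p under 0.05 in all 12 fits that left out 1 library. Klf7 kept it in 4 of these fits and lost it in the other 8, with a highest adjusted p of 0.0776. Klf5, Klf6, Klf9 and Klf4 had limma adjusted p of 0.252, 0.227, 0.132 and 0.320, and Klf3 of 0.863, while Klf2 and Klf13 had limma adjusted p of 0.99999.

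Against IC, the proteins and the secretome moved more members than EV did, as they moved more genes in all. With the 3–100 kDa proteins, 2 members rose (Klf10 and Klf4) and 2 fell (Klf15 and Klf7) by the fold rule, which 6.64% of 12792 genes passed upward and 3.39% downward. At the FDR 2 members passed, Klf10 and Klf15, where 3.31% of all genes did. Klf4 in IC and Klf15 with the proteins reached 1 TPM in 1 library each, so in this comparison both passed the filter on low values through the group where they were high. In the fit with no such filter, over 17423 genes, the same 4 members passed the fold rule, against 5.25% of genes upward and 2.78% downward, and the same 2 passed the FDR, against 1.86%. With the total secretome, 2 members rose (Klf10 and Klf5) and 2 fell (Klf7 and Klf15), where 5.55% of 12790 genes passed upward and 2.54% downward, and 1 member, Klf10, passed the FDR that 1.97% of genes passed. With EV, 1 member rose (Klf10) and 1 fell (Klf15), where 1.56% of 12754 genes rose and 0.588% fell. At the FDR, 0 of the 9 members tested passed in limma, where 0.141% of genes passed, and 2 members had an unadjusted p under 0.05, against 2.82% of genes. These shares of genes depended on single libraries. Without EV replicate 1 the share that fell with EV was 1.47%. The share at the FDR with the proteins was 0.7% without proteins replicate 2 and 0.706% without proteins replicate 3, and with the secretome it ranged from 0.246% without secretome replicate 3 to 6.42% without IC replicate 2. The libraries of treated and control cultures did not overlap for 6 of 10 members with the proteins and 6 of 10 with the secretome, against 23.6% and 24% of all genes tested. For EV this was 1 of 9 members, against 6.18%. The median log2 fold change of the members was 0.41 with the proteins, 0.34 with the secretome and 0.09 with EV, where the medians over all genes tested were -0.02, -0.01 and -0.01. These comparisons share the IC libraries.

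**Figure D2:**
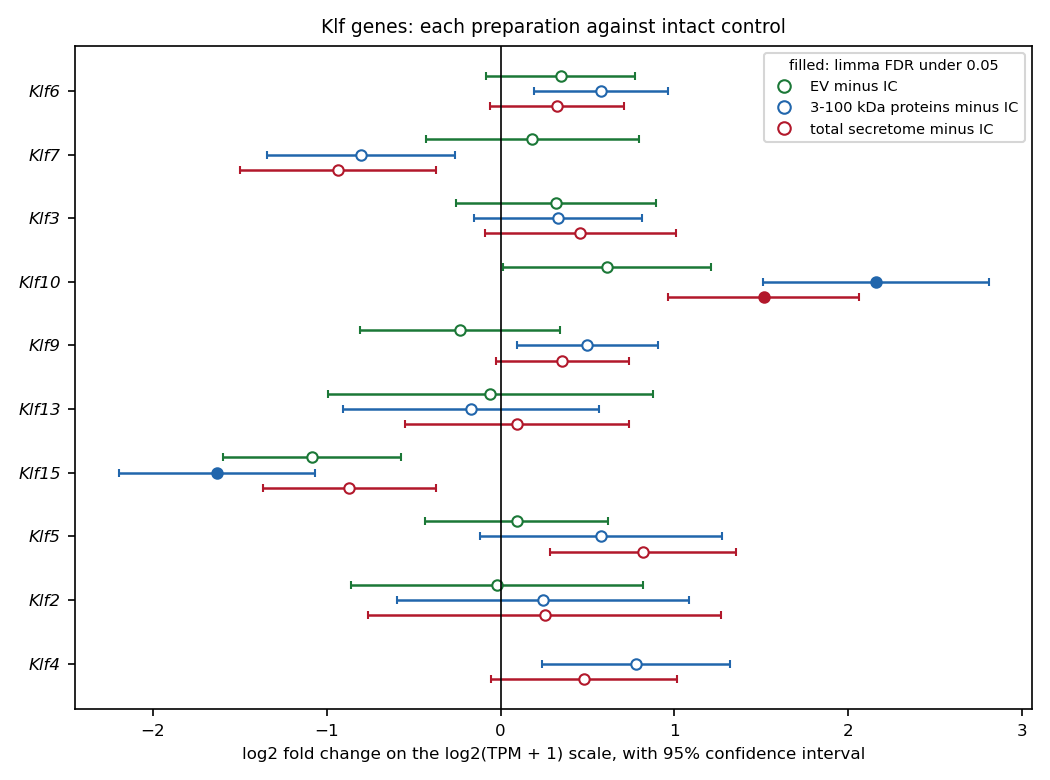
Log2 fold change of each member on the log2(TPM + 1) scale (horizontal axis) for EV, 3–100 kDa proteins and total secretome against IC, with bars for the 95% confidence interval of the limma fit and filled points for an FDR under 0.05. The 3 filled points are Klf10 with the proteins (2.16) and the secretome (1.51) and Klf15 with the proteins (-1.63), and EV against IC has no point for Klf4, which was too low to test there. Klf15 with the proteins passed the filter on low values through IC, and it also passed the FDR in the fit with no such filter.

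Klf10, also known as TIEG, is an early response gene of TGF-β that acts mainly as a repressor. Its 3 IC libraries held 14.4, 8.83 and 10.7 TPM. With the 3–100 kDa proteins it was at 35.3, 68.6 and 57.5 TPM, with the secretome at 26.3, 42.3 and 32.5 TPM, and with EV at 12.4, 21.2 and 20.7 TPM. All 6 libraries with proteins or secretome lay above every IC and every EV library, whereas EV replicate 1 lay within the IC range. The log2 fold change was 2.16 with the proteins (4.47-fold, standard error 0.28, limma adjusted p = 0.00842) and 1.51 with the secretome (2.85-fold, standard error 0.24, limma adjusted p = 0.0240). With EV it was 0.61 (1.53-fold, standard error 0.25, limma adjusted p = 0.9997), and Klf10 passed the fold rule there with little margin. It missed that rule without IC replicate 2 (0.46), IC replicate 3 (0.64), EV replicate 2 (0.52) or EV replicate 3 (0.49), and with no filter on low values, TPM as deposited, a fit of all 12 libraries or the replicate number as a block. The FDR with the proteins was missed without proteins replicate 2 (adjusted p = 0.0545) or proteins replicate 3 (adjusted p = 0.0586). With the secretome it was missed without IC replicate 1 (adjusted p = 0.0702), IC replicate 3 (0.0603), secretome replicate 2 (0.126) or secretome replicate 3 (0.145). The log2 fold change stayed between 2.0 and 2.46 with the proteins and between 1.34 and 1.73 with the secretome over all alternatives tried.

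Klf15, a regulator of amino acid and lipid metabolism that glucocorticoids induce, was lower in all 9 treated libraries than in any IC library. The IC libraries held 5.50, 4.01 and 4.12 TPM. The values were 0.603, 1.33 and 0.461 TPM with the proteins, 2.65, 2.07 and 1.38 TPM with the secretome and 1.96, 1.41 and 1.47 TPM with EV. It was the only member to pass the fold rule downward with all 3 preparations. The log2 fold change was -1.63 with the proteins (standard error 0.24, limma adjusted p = 0.0147), -1.09 with EV (standard error 0.22, limma adjusted p = 0.262) and -0.87 with the secretome (standard error 0.21, limma adjusted p = 0.101). Since Klf15 lay near the pseudocount, the size depended on it, and with the proteins the change ran to -2.45 at a pseudocount of 0.1. With the proteins Klf15 passed the filter on low values through IC, and with no such filter its limma adjusted p was 0.0238. The FDR with the proteins was missed without IC replicate 1 (adjusted p = 0.0821), IC replicate 3 (0.0521), proteins replicate 1 (0.0510) or proteins replicate 3 (0.0936). It was also missed with the replicate number as a block (limma adjusted p = 0.0593). Bulk values do not tell fewer cells of a type from less RNA per cell. The 6 astrocyte markers, of a cell type in which Klf15 is known to be expressed, summed to 728 to 999 TPM in IC, 819 to 1247 TPM with the proteins, 973 to 1403 TPM with the secretome and 1012 to 1351 TPM with EV. Of these, Gfap, the intermediate filament of astrocytes, rose by the fold rule with EV (log2 difference 1.58, limma adjusted p = 0.9997) and the secretome (1.40, limma adjusted p = 0.269). Without Gfap the other 5 summed to 599 to 714 TPM in IC, 577 to 800 TPM with the proteins, 701 to 768 TPM with the secretome and 530 to 734 TPM with EV, and 0 of them passed the fold rule. Pdgfrb, a marker of mural cells, was lower in all 9 treated libraries than in IC, as Klf15 was. It stood at 3.18, 4.01 and 2.45 TPM in IC and fell by the fold rule with the secretome (-0.92, limma adjusted p = 0.0912) and EV (-0.90, limma adjusted p = 0.743). With the proteins it was at 0.481, 0.851 and 0.321 TPM and passed the filter only through IC, so these values are a description. The fibroblast gene Col1a1 held 0.360, 0.0365 and 0.261 TPM in IC, against 1.29, 1.64 and 1.81 TPM with the proteins, a description for the same reason. Rgs5, another marker of mural cells, was listed at 0 TPM in every IC, EV and secretome library. With the proteins it was at 0.662, 0 and 0 TPM. Oligodendrocyte lineage markers summed to 174 to 221 TPM in IC, 121 to 183 TPM with the proteins, 230 to 253 TPM with the secretome and 185 to 225 TPM with EV, and Olig1 fell by the fold rule with the proteins (-0.59, limma adjusted p = 0.199). The part of these cell types in the changes of Klf15 and of the other members was not tested.

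The windows around the start sites of Klf15, Klf7, Klf6 and Klf4 are shown in part, since Klf15 and Klf7 fell and Klf4 was higher with the proteins and Klf6 was the most abundant member. RefSeq's table for the rat assembly GRCr8 held windows for 7 of the 10 members, with 250 bases before and 50 after the annotated start. Its coordinates are those of GRCr8, not of the Rnor_6.0 build that the deposited values rest on. Capitals mark letters that match a searched motif on either strand, and each stretch reads 5′ to 3′ on the strand of the gene. The Klf15 stretch, chr4:124522835-124522924 on the + strand, covers positions -180 to -91 from the start, and those of Klf7 (chr9:73020187-73020276, - strand, -220 to -131), Klf6 (chr17:69458609-69458698, - strand, -220 to -131) and Klf4 (chr5:75078663-75078752, - strand, -160 to -71) follow.
Klf15: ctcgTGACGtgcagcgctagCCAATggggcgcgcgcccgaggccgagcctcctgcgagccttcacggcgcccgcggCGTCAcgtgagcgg
Klf7: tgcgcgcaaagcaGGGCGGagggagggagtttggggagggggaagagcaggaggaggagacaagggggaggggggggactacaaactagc
Klf6: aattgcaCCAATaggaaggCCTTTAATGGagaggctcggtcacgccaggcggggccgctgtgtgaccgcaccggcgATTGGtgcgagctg
Klf4: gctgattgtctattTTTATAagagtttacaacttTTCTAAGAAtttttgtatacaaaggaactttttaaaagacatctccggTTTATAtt

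The motifs searched on both strands were the cyclic AMP response element TGACGTCA, its core TGACG (which the full element contains), the AP-1 site TGANTCA, the GC box GGGCGG, the CACCC box CCACACCC, the CCAAT box CCAAT, the TATA box TATAAA, the STAT site TTCNNNGAA and the CArG box of serum response factor. Klf15 held 2 copies of the core TGACG, at -176 and -104, and 1 CCAAT box at -160. Of 33469 RefSeq windows of this length, 21.2% held TGACG and 37.5% a CCAAT box. Klf7 held 1 GC box, at -207, which 33.1% of windows held. Klf6 held the CArG box at -201, found in 1.64% of windows, together with 4 CCAAT boxes and 1 GC box. In Klf4 there were 2 TATA boxes, at -146 and -78, and 1 STAT site at -126, which 14.2% and 8.87% of windows held. The core TGACG was also found in Klf5 (at -27) and Klf9 (at -79), and a STAT site in Klf9 (at -66). A GC box was also found in Klf3, and CCAAT boxes in Klf3, Klf5 and Klf9. The AP-1 site, present in 7.33% of windows, was found in Klf9, the CACCC box, present in 3.22%, in Klf3, and the full cyclic AMP element, present in 1.83%, in none of the 7 windows. GC content was 77.3% in the Klf15 window and 45% in that of Klf4, with a median of 51.7% over all windows. A match describes letters and not a bound site.

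Klf7 and Klf6, the members known to favour axon growth, were the most abundant members in IC. Klf7 fell with the proteins and the secretome, and Klf6 did not pass the fold rule with any preparation in the fits of 6 libraries at a pseudocount of 1. Klf7 stood at 50.2, 31.4 and 53.3 TPM in the IC libraries. EV cultures held 38.4, 55.2 and 59.4 TPM. With the proteins it was at 25.6, 22.1 and 24.9 TPM and with the secretome at 27.2, 17.8 and 22.4 TPM. The 6 libraries with proteins or secretome all lay below the 6 of IC and EV. The 5 neuronal markers summed to 2108 to 2228 TPM in IC, 1688 to 2002 TPM with the proteins, 1652 to 2102 TPM with the secretome and 2004 to 2227 TPM with EV, so their sums with the proteins and the secretome also lay below every IC library. Tubb3 held most of these sums, with means of 1417 TPM in IC, 1159 TPM with the proteins and 1151 TPM with the secretome. Log2 differences from IC with the proteins were -0.26 for Tubb3, -0.10 for Map2, -0.07 for Syt1, -0.04 for Rbfox3 and 0.14 for Snap25. With the secretome they were -0.29, -0.20, -0.21, -0.06 and 0.09 in the same order. None of the 5 passed the fold rule in these comparisons, and their part in the change of Klf7 was not tested. The log2 fold change of Klf7 against IC was -0.94 with the secretome (standard error 0.24, limma adjusted p = 0.112) and -0.80 with the proteins (standard error 0.23, limma adjusted p = 0.128). Neither passed the FDR in these fits. Same-numbered libraries of the secretome and IC deviated together, and with the replicate number as a block Klf7 passed the FDR with the secretome (adjusted p = 0.0342), as it did in the fit of all 12 libraries (limma adjusted p = 0.0496), where 1.95% and 4.02% of all genes passed. With EV the difference from IC was 0.18 with a 95% confidence interval from -0.43 to 0.80. Klf7 has 2 rows in the files, of which 1 holds at most 5.86 TPM in any library, and leaving out that row changed no call. IC replicate 2, with the lowest Klf7 level of the group, also had the lowest mean correlation with its group in IC. Without it Klf7 passed the FDR with the proteins (limma adjusted p = 0.0214) and with the secretome (limma adjusted p = 0.0186). The fold rule held for Klf7 with the proteins and the secretome without any 1 library.

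Klf6 stood at 50.2, 48.0 and 61.2 TPM in IC, 88.1, 74.2 and 71.5 TPM with the proteins, 70.9, 58.6 and 67.7 TPM with the secretome and 75.5, 62.6 and 65.9 TPM with EV. The libraries with proteins all lay above IC, those with EV lay above it by a small margin in deposited TPM but overlapped after rescaling, and the secretome libraries overlapped with it. The difference between the proteins and IC was 0.58 in log2 units (1.49-fold, standard error 0.16, limma adjusted p = 0.125), just short of the fold rule. Klf6 passed that rule with the proteins at a pseudocount of 0.1 (0.59), without IC replicate 3 (0.74) or without proteins replicate 2 (0.65), and it passed the FDR in the fit of all 12 libraries (limma adjusted p = 0.0497), as 6.88% of genes did. It was 0.35 with EV (95% confidence interval -0.08 to 0.77) and 0.32 with the secretome (-0.06 to 0.71). The ratio of Klf6 to Klf7 was 0.999 to 1.53 in IC, 1.11 to 1.97 with EV, 2.87 to 3.44 with the proteins and 2.61 to 3.29 with the secretome. Together the pair made up 60.8% to 67.2% of the summed TPM of the 10 members in IC and 43.3% to 58.8% with the proteins or the secretome.

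Klf4 and Klf9 are known to restrain axon growth. IC libraries held 0.924, 0.656 and 1.23 TPM of Klf4, and those with the proteins 1.96, 2.47 and 2.37 TPM. With the secretome it was at 1.96, 1.52 and 1.55 TPM, and with EV at 2.12, 0.791 and 0.864 TPM, where replicate 1 stood apart from the other libraries of its group. Klf4 reached 1 TPM in 1 IC library and passed the filter against the proteins and the secretome through the treated libraries. Its log2 difference of 0.78 with the proteins (standard error 0.23) is therefore read from the fit with no filter, where it passed the fold rule and not the FDR (limma adjusted p = 0.129). With the secretome the difference was 0.48 (95% confidence interval -0.06 to 1.02), although its libraries did not overlap with those of IC. Without IC replicate 3 the difference was 0.62. In that fit Klf4 passed the filter only through the secretome libraries, so this value is a description. Microglial and endothelial markers, cell types in which Klf4 and Klf2 are known to be high, summed to 0.201–0.552 TPM and 0.639–0.758 TPM with the proteins, and to 0.190–2.10 TPM and 0.196–0.247 TPM in IC.

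Klf9 stood at 8.25, 10.6 and 8.80 TPM in IC, 14.1, 14.5 and 10.96 TPM with the proteins, 12.4, 12.6 and 10.7 TPM with the secretome and 10.4, 6.56 and 6.59 TPM with EV. Every library with proteins or secretome lay above every library of IC and EV, by a small margin for the lowest ones. The difference from IC was 0.50 with the proteins (standard error 0.17, limma adjusted p = 0.194) and 0.36 with the secretome (95% confidence interval -0.03 to 0.74), both short of the fold rule, which Klf9 passed with the proteins without IC replicate 2 (0.59). With EV it was -0.23 (-0.81 to 0.34).

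Klf5, which promotes proliferation in epithelia and smooth muscle, rose with the secretome. IC libraries held 5.14, 3.37 and 4.90 TPM and secretome libraries 7.73, 7.64 and 10.1 TPM, without overlap. The difference was 0.82 in log2 units (standard error 0.23, limma adjusted p = 0.135). With the proteins it was at 4.75, 7.22 and 9.53 TPM, the widest spread of any Klf5 group, and the difference of 0.58 had a 95% confidence interval from -0.12 to 1.28. It passed the fold rule without proteins replicate 1 (0.84). With EV the values of 4.25, 5.77 and 4.50 TPM overlapped with IC (difference 0.09, interval -0.43 to 0.62).

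Klf3, Klf13 and Klf2 did not pass the fold rule in the 6 comparisons, except that Klf3 passed it with the secretome when secretome replicate 1 was left out (0.68). Klf3, a repressor that acts through CtBP, lay between 11.7 and 16.1 TPM in IC and between 12.9 and 23.0 TPM in the treated libraries, with log2 differences from IC of 0.32 with EV, 0.33 with the proteins and 0.46 with the secretome (95% confidence interval of the last -0.09 to 1.01). Klf13, a relative of Klf9, lay between 3.78 and 10.6 TPM over all 12 libraries, and its intervals against IC reached from -0.995 to 0.88 with EV, -0.90 to 0.56 with the proteins and -0.55 to 0.74 with the secretome. Klf2, which maintains quiescence in endothelium and T cells, lay between 0.536 and 3.21 TPM, with intervals against IC of -0.86 to 0.82, -0.60 to 1.09 and -0.76 to 1.27 in the same order. These intervals are wide enough to hold changes of the size that passed the fold rule in other members.

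The preparations were also compared with each other, at their different doses. EV differed from the 3–100 kDa proteins in 3 members by the fold rule, with Klf7 higher and Klf10 and Klf9 lower after EV, where 1.58% of 12751 genes were higher and 3.56% lower. In EV against the secretome 3 members passed it, with Klf7 higher and Klf10 and Klf5 lower after EV, where 1.43% of 12754 genes were higher and 2.56% lower. Between the secretome and the proteins 1 member passed it, Klf15, which was higher with the secretome, where 0.542% of 12723 genes were higher and 0.707% lower. At the FDR 0 members passed in limma in these comparisons, where 0.533%, 0.188% and 0.0157% of genes passed. Single libraries moved these shares, which were 0.0159% for EV against the proteins without EV replicate 2, 0.0398% without proteins replicate 2 and 0 for EV against the secretome without secretome replicate 2 or 3. At an unadjusted p under 0.05 there were 3, 4 and 1 members in the same order, against 9.34%, 7.7% and 2.64% of genes. Without EV replicate 1, 2.94% of genes were higher in EV than with the proteins, and 3.91% were higher and 3.12% lower than with the secretome.

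For Klf10 the difference between EV and the proteins was -1.53 in log2 units (standard error 0.30, limma adjusted p = 0.118), and between EV and the secretome -0.89 (standard error 0.26, limma adjusted p = 0.423). For Klf7 it was 0.997 between EV and the proteins (standard error 0.19, limma adjusted p = 0.114) and 1.13 between EV and the secretome (standard error 0.21, limma adjusted p = 0.156). Same-numbered libraries of these preparations deviated together. With the replicate number as a block, both genes passed the FDR between EV and the proteins, Klf10 with an adjusted p of 0.00395 and Klf7 with 0.0279, where 2.67% of all genes passed it. In the same kind of fit 2 members passed the fold rule between the secretome and the proteins, with Klf10 joining Klf15, where 0.833% of genes were higher and 0.982% lower. Without EV replicate 1 Klf7 alone passed the FDR in EV against the proteins and in EV against the secretome, 1 member in each. In those fits 0.571% and 0.436% of all genes passed it.

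Klf9 was lower after EV than with the proteins (log2 difference -0.72, standard error 0.22, limma adjusted p = 0.340), which missed the fold rule without EV replicate 2 (-0.59). Klf5 was lower after EV than with the secretome (-0.71, standard error 0.21, limma adjusted p = 0.442), which missed it without secretome replicate 3 (-0.55). Klf15 was higher with the secretome than with the proteins by 0.76 (standard error 0.26, limma adjusted p = 0.99996). Klf15 passed the filter there through the secretome libraries, and it kept the fold rule with no filter. That difference missed the fold rule without proteins replicate 3 (0.66) or secretome replicate 1 (0.65). Klf6 did not separate the preparations, with intervals from -0.56 to 0.12 for EV against the proteins, -0.31 to 0.38 for EV against the secretome and -0.52 to 0.03 for the secretome against the proteins.

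**Figure D3:**
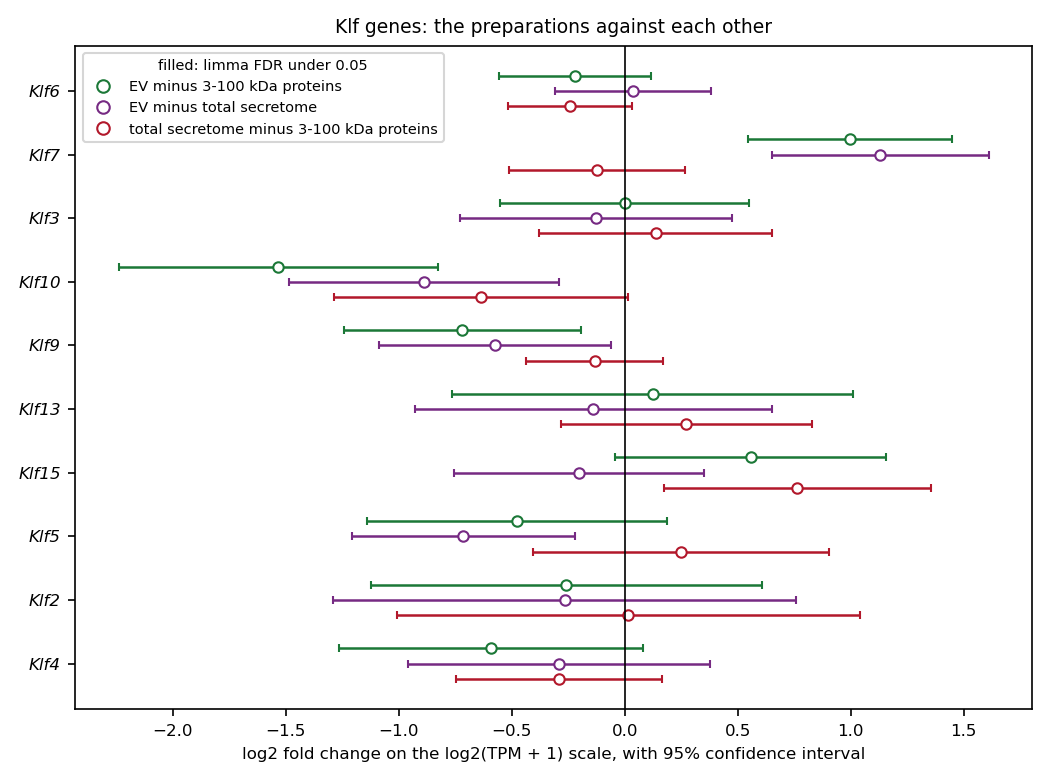
Log2 difference of each member on the log2(TPM + 1) scale (horizontal axis) between the preparations, with bars for the 95% confidence interval of the limma fit. Klf7 lies to the right for EV against either other preparation (0.997 and 1.13) and Klf10 to the left (-1.53 and -0.89), no point is filled since none passed the FDR, and most intervals of the secretome against the proteins include 0.

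Over the 12 libraries the members did not follow 1 pattern. As a description over libraries that share their conditions, the log2 values of Klf4 and Klf6 had a Pearson correlation of 0.80, Klf4 and Klf9 of 0.77, Klf5 and Klf10 of 0.76 and Klf3 and Klf5 of 0.72. Klf7 ran against Klf9 (-0.88), and Klf15 against Klf6 (-0.78) and Klf10 (-0.76). Among 12671 genes, those most like Klf10 were Vcl (0.99), the focal adhesion protein vinculin, and Gldn (0.98). Those most like Klf7 were Disp2 (0.98) and Ccpg1 (0.98), those most like Klf15 Rgma (0.94) and Ppap2b (0.93), and those most like Klf5 Epas1 (0.95) and Nr4a1 (0.94). For Klf4 they were Mettl6 (0.93) and Hars (0.91), for Klf6 Whamm (0.92) and Cdr2l (0.87), for Klf9 AABR07029710.1 (0.95) and C1ql3 (0.94), for Klf3 Fgd6 (0.97) and Asxl2 (0.96), for Klf2 Rbm38 (0.84) and Gstt1 (0.83) and for Klf13 Pard3 (0.83) and LOC100360750 (0.82).

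Among all genes tested against IC, 6.64% rose and 3.39% fell by the fold rule with the proteins, 5.55% and 2.54% with the secretome and 1.56% and 0.588% with EV. At the FDR 3.31%, 1.97% and 0.141% passed in the same order. The counts in the lists that follow stand beside these shares. Of the 7 other Klf genes, 4 passed the filter on low values and 1 moved. Klf11, the closest relative of Klf10, held 18.9, 16.7 and 14.6 TPM in IC, against 15.8, 16.9 and 14.1 TPM with EV. It was at 9.88, 7.46 and 5.14 TPM with the proteins and at 8.81, 6.36 and 8.03 TPM with the secretome, below every IC and EV library. It fell by 1.07 in log2 units with the proteins (standard error 0.21, limma adjusted p = 0.0396) and by 1.01 with the secretome (standard error 0.17, limma adjusted p = 0.0283), both past the FDR. The ratio of Klf10 to Klf11 was 0.530 to 0.761 in IC, 0.783 to 1.47 with EV, 3.58 to 11.2 with the proteins and 2.98 to 6.65 with the secretome. Klf8, Klf12 and Klf16 passed the fold rule in no comparison with IC. Klf17 was listed at 0 in all 12 libraries. Klf14 was too low to test against IC, listed with 0, 0.150 and 0 TPM in IC and 0.0845, 0.105 and 0.172 TPM with EV, but at 0.660, 0.876 and 1.14 TPM with the proteins and 0.956, 0.971 and 0.826 TPM with the secretome.

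The related Sp factors, which bind the same GC boxes, did not move by the fold rule with any preparation (0 of 6 tested in each limma comparison with IC, and a lowest unadjusted p of 0.0493 for Sp9 with the proteins). Of 13 co-regulators tested, Fhl3, a LIM-only partner of Klf3, rose with all 3 preparations, by 1.97 with the proteins (limma adjusted p = 0.0253), 1.28 with the secretome (limma adjusted p = 0.125) and 1.05 with EV (limma adjusted p = 0.9997). Ctbp2 rose by 0.59 with the secretome (limma adjusted p = 0.114), and the third gene named from this list, Btrc, had differences from -0.26 to -0.08. The other 11 co-regulators did not pass the fold rule in these comparisons. In the ERK5 and MEF2 list, known to act upstream of Klf2 and Klf4, Mef2c fell with the proteins (-0.61, limma adjusted p = 0.263) and the secretome (-0.74, limma adjusted p = 0.203) while Mapk7 held 3.03, 2.01 and 2.86 TPM in IC, against 1.54, 0.825 and 0.455 TPM with the secretome, which is given as a description since it passed the filter through IC. Map2k5 had differences of -0.48 and -0.36 and did not pass the rule. Of 7 genes in that list tested with EV, 0 passed, where 1.56% of all genes rose and 0.588% fell.

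Of 5 genes of serum response factor and its cofactors, only Elk3 passed the fold rule. It rose by 1.34 with the proteins (limma adjusted p = 0.0103), 1.14 with the secretome (limma adjusted p = 0.0607) and 0.65 with EV (limma adjusted p = 0.9997), while Srf itself had differences of 0.26, 0.08 and 0.12 in the same order. The 8 genes of the glucocorticoid list did not move 1 way. With the proteins Errfi1 (2.06, limma adjusted p = 0.0147) and Fkbp5 (0.65, limma adjusted p = 0.0736) rose and Nr3c2, the mineralocorticoid receptor, fell (-0.97, limma adjusted p = 0.140). With the secretome Errfi1 (0.95) and Fkbp5 (0.66) rose and Nr3c2 (-0.95) and Zbtb16 (-0.63) fell by the fold rule, and with EV 0 of the 8 passed it.

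In the TGF-β list, Tgfbr2 and Tgfb1 passed the filter in the comparison of the proteins with IC only through the libraries with proteins. The receptor gene Tgfbr2 was listed with 0, 0.0788 and 0.0938 TPM in IC and with 1.22, 2.69 and 2.39 TPM with the proteins, and these values are a description, since a gene that passed in this way had to differ. Of the other 7 genes tested, 2 rose with the proteins and 0 fell, where 6.64% of all genes rose and 3.39% fell. The 2 that rose were the co-repressor Tgif1, which passed the FDR (1.12, limma adjusted p = 0.0342), and Smad3. Smad3, which carries the receptor's signal to the nucleus, passed the fold rule alone (0.63, limma adjusted p = 0.130). Smad7 and Skil, direct feedback targets of SMADs, did not pass the fold rule (-0.22 and 0.40 with the proteins). With the secretome 1 of 7 tested genes of the list rose, Tgif1 (0.71, limma adjusted p = 0.183), and with EV 0 of 7 passed, with a lowest limma adjusted p of 0.9997. Of 3 tested targets of Klf2, Klf4 and Klf6, Cdkn1a, the cell cycle inhibitor p21, rose with the proteins (1.40, limma adjusted p = 0.0250) and the secretome (1.18, limma adjusted p = 0.0167), and S1pr1 fell with the proteins (-1.34, limma adjusted p = 0.0134) and the secretome (-0.79, limma adjusted p = 0.136). Cdkn1b did not pass. With EV 0 of the 3 passed, and S1pr1 had a difference of -0.58.

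**Figure D4:**
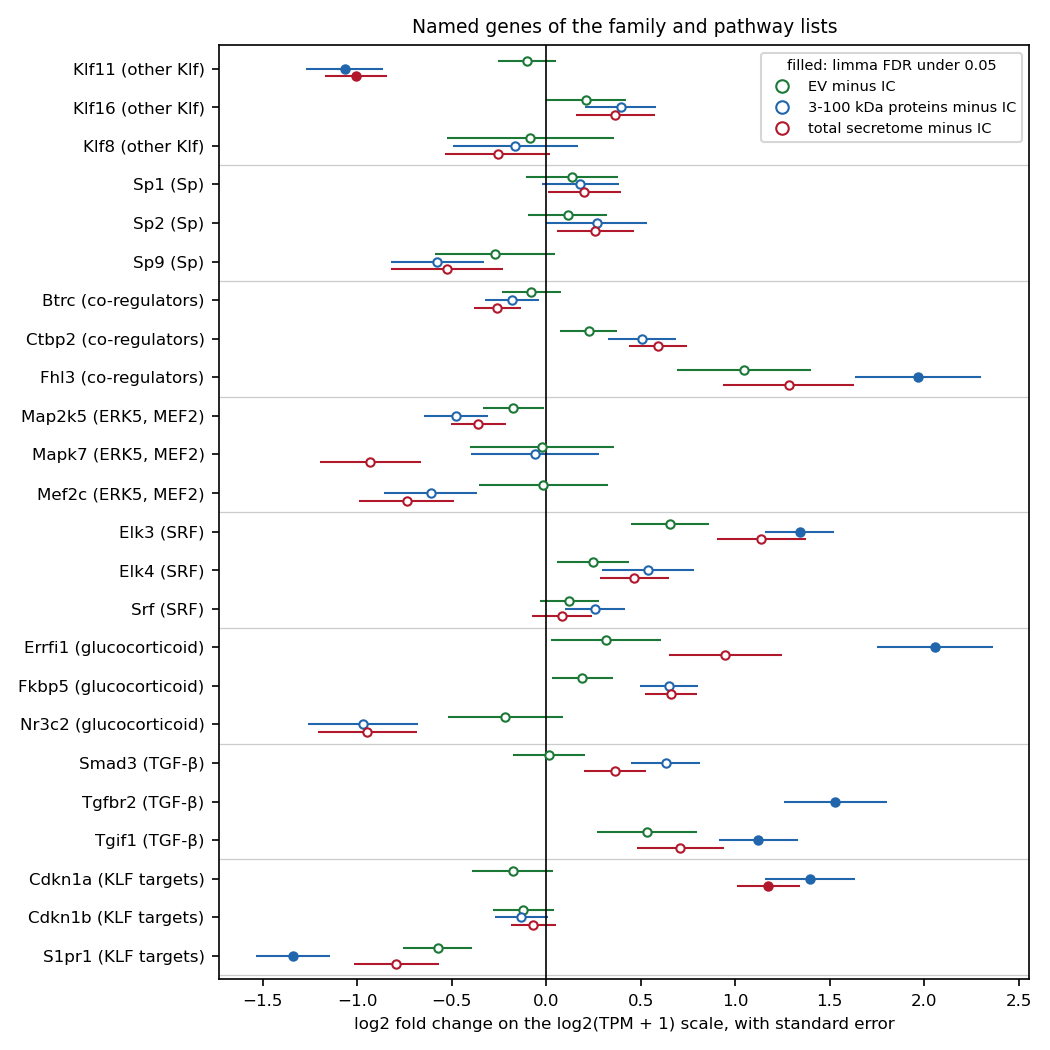
Log2 fold change on the log2(TPM + 1) scale (horizontal axis) with its standard error for the 3 genes of lowest p in each family and pathway list, for EV, 3–100 kDa proteins and total secretome against IC, with filled points for an FDR under 0.05. Klf11 lies near -1 with the proteins and the secretome (-1.07 and -1.01) and near 0 with EV (-0.10), and a gene has no point in a comparison where it was too low to test.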

How the data were processed

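Each of the 12 libraries has 1 file with a gene name and a value per row. The authors made the deposited TPM values by quantifying trimmed reads with Salmon on the rat transcriptome of Rnor_6.0, using genomic sequence as a decoy, followed by tximport at gene level. No header names the unit, and TPM was inferred from library sums of 1000000 and fractional values. TPM hold no depth, so the precision of a value is known only from its replicates. The 32285 rows carry 28111 names, and rows of one of the 497 repeated names were summed. TPM were rescaled within each comparison by the median ratio to the geometric mean, a gene was kept if 3 or more libraries reached 1 TPM, and log2(TPM + 1) was tested with limma 3.58.1 (R 4.3.3, eBayes with trend, Benjamini-Hochberg adjustment). Over all 12 libraries the scaling factors lay between 0.904 and 1.075. The fit was tested on simulated data.

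The members and lists were chosen with earlier results of these data known. Named genes were all members, the 3 of each list with the lowest p against IC, and the 2 genes most correlated with each member. Zbtb16, Smad7, Skil, Tgfb1, Klf12, Klf14, Klf17, Gfap, Pdgfrb, Col1a1, Rgs5, Olig1 and the other single markers of neurons and of the oligodendrocyte lineage fall outside this rule and were chosen after their values were seen. 1 gene of the TGF-β list is not reported here and was left out of its counts. Hdac1, Mrtfb and Pecam1 were not analysed here, and Mrtfa was matched as Mkl1. Alternatives varied the pseudocount, filter, scaling, libraries fitted, rows, trend and replicate block, and left out each library. Replicate numbers were read as pairing libraries where the deviations of all 3 same-numbered pairs from their group means correlated above 0.1. This came from the data and not from the labels. The study's supplement names a day covariate for IC and EV, but which library belongs to which day is not given in the sources used here. It held for the secretome and IC (0.25, 0.16 and 0.16), EV and proteins (0.59, 0.29 and 0.30), EV and secretome (0.26, 0.19 and 0.21) and secretome and proteins (0.38, 0.21 and 0.24).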

Additional observations from a re-analysis of the deposited data

How the results depend on the processing

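The 17 calls of members by the fold rule kept their direction in all 255 alternative fits, and 243 of these kept the call. The calls lost were those of Klf10 with EV in 8 fits, Klf15 between secretome and proteins in 2, Klf9 between EV and proteins in 1 and Klf5 between EV and secretome in 1. The number of members called with EV against IC fell from 2 to 1 with no filter on low values, TPM as deposited, the fit of all 12 libraries or the replicate block. In the secretome against the proteins it rose from 1 to 2 with TPM as deposited, the fit of all 12 libraries or the replicate block. Members called rose from 4 to 5 for the proteins against IC at a pseudocount of 0.1 (Klf6), from 3 to 4 for EV against the proteins in the fit of all 12 libraries (Klf4) and from 3 to 4 for EV against the secretome at pseudocounts of 0.1 and 0.5 or with upper-quartile scaling (Klf9). The shares of all genes higher and lower were 6.92% and 3.88% in the fit that added Klf6 and 1.6% and 3.7% in that of Klf4. For Klf9 they were 1.75% and 2.7%, 1.6% and 2.74%, and 1.36% and 2.63% in the order given. At the FDR, the count for the proteins against IC fell from 2 to 1 with the replicate block, where Klf15 was lost, and rose to 3 in the fit of all 12 libraries, where Klf6 was gained. For the secretome against IC it rose from 1 to 2 in the fit of all 12 libraries and with the replicate block. For EV against the proteins it rose from 0 to 1 in the fit of all 12 libraries and to 2 with the replicate block. The share of all genes at the FDR rose there in both fits too, from 0.533% to 2.67% with the block. For the proteins against IC that share rose from 3.31% to 6.88% in the fit of all 12 libraries and fell with the block. For the secretome against IC it rose from 1.97% to 4.02% in the fit of all 12 libraries and was 1.95% with the block. Apart from these changes in the members called, the block changed no call of a member by either rule. The numbers did not pair EV with IC (correlations -0.08, -0.18 and 0.54) or the proteins with IC (-0.01, -0.25 and 0.25).

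Leaving out 1 library at a time, the members called lay between 1 and 2 for EV against IC, 4 and 5 for the proteins and for the secretome against IC, 2 and 4 for EV against the proteins and against the secretome, and 0 and 2 for the secretome against the proteins. In these fits 1.09% to 2.05% of all genes rose and 0.438% to 1.47% fell with EV against IC. The shares were 5.12% to 7.93% and 2.99% to 4.64% with the proteins, and 4.22% to 6.25% and 2.11% to 4.68% with the secretome. They were 1.35% to 2.94% and 2.72% to 4.3% for EV against the proteins. They were 1.03% to 3.91% and 1.87% to 3.12% for EV against the secretome, and 0.477% to 1.08% and 0.594% to 1.27% for the secretome against the proteins. Members at the FDR lay between 0 and 3 for the proteins, 0 and 2 for the secretome and 0 and 1 for EV against either preparation, and between 2 and 4 in the F test, which 310 to 627 genes in all passed. The share of all genes at the FDR in these fits ranged from 0.7% to 3.83% for the proteins, 0.246% to 6.42% for the secretome, 0.0159% to 0.571% for EV against the proteins and 0 to 0.436% for EV against the secretome. The signs that turned belonged to 18 uncalled differences, the largest of 0.27 in size. Klf3 in EV against the proteins turned to 0.0258 with TPM as deposited and 0.0121 with upper-quartile scaling. Klf2 in the secretome against the proteins turned to -0.0553 and -0.00618 at pseudocounts of 0.1 and 0.5 and to -0.00948 with TPM as deposited. Leaving out libraries, Klf13 ranged from -0.34 to 0.33 for EV, -0.45 to 0.0170 for the proteins and -0.19 to 0.28 for the secretome against IC, and from -0.0762 to 0.51 and -0.34 to 0.26 for EV against the proteins and the secretome. Klf2 ranged from -0.29 to 0.20 for EV, -0.0229 to 0.53 for the proteins and -0.13 to 0.66 for the secretome against IC, from -0.67 to 0.11 for EV against the secretome and from -0.37 to 0.42 for the secretome against the proteins. Klf3 ranged from -0.15 to 0.21 for EV against the proteins, -0.35 to 0.0878 for EV against the secretome and -0.0111 to 0.36 for the secretome against the proteins. Klf5 ranged from -0.0674 to 0.20 for EV against IC and -0.00387 to 0.51 for the secretome against the proteins, Klf6 from -0.0600 to 0.13 for EV against the secretome, and Klf7 from -0.0608 to 0.37 for EV against IC and -0.23 to 0.0282 for the secretome against the proteins. The cause of these changes was not tested.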
